A study of Mus musculus with 10 samples.

Results

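Proximal signalling genes of the high-affinity IgE receptor, FcεRI, were examined in BM-derived allergic effector cells. The list held 10 members: the Src family kinases *Lyn* and *Fyn*, the tyrosine kinases *Syk* and *Btk*, the adaptors *Lat*, *Lat2* and *Lcp2*, the phospholipases *Plcg1* and *Plcg2*, and the inositol phosphatase *Inpp5d*. A member was measured by its probe set with 1 gene symbol, and 9 of the 10 members were found, among 19937 genes so named. No probe set was assigned to *Lyn* in the annotation used here, and it was not analysed here. Each of the 9 had 1 such probe set.

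RNA was hybridized to 10 Affymetrix GeneChip Mouse Gene 1.0 ST arrays, 1 for each of 10 conditions. All cells came from BM of the C57BL6/N strain, either wild type (B6) or *Slpi*-/-, which lacks secretory leukoprotease inhibitor, and the ages of the mice were not given. BM-derived basophils (BMBs) were grown with IL-3 and isolated as c-kit- DX5+ cells, mast cells were grown with IL-3 for longer, and BM-derived eosinophils (BMEos) were grown with stem cell factor and Flt3 ligand and then with IL-5. The 5 cell states, each with 1 array of either genotype, were unstimulated BMBs, BMBs held with anti-TNP-IgE for 1 h and afterwards with the antigen TNP-OVA for 12 h, unstimulated mast cells, unstimulated BMEos, and BMEos given LPS for 3 h. How many mice or cultures stood behind an array was not stated, so every p-value below measures the spread between these arrays alone.

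FcεRI is built from an IgE-binding α chain (*Fcer1a*), a β chain (*Ms4a2*) and a γ chain (*Fcer1g*). When antigen crosslinks bound IgE, Lyn phosphorylates the β and γ chains and Syk docks on them. Fyn acts beside Lyn through the adaptor Gab2. Syk phosphorylates the adaptors LAT (*Lat*), NTAL (*Lat2*) and SLP-76 (*Lcp2*), which gather phospholipase Cγ (*Plcg1*, *Plcg2*). With help from Btk, phospholipase Cγ splits a membrane lipid into messengers that release calcium and activate protein kinase C, and SHIP1 (*Inpp5d*) restrains the cascade by removing a phosphate from the lipid that PI3-kinase makes. Mast cells and basophils degranulate through this route. Several of the same proteins also work downstream of integrins, Fcγ receptors and antigen receptors.

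Signals are given as deposited, in log2 units from robust multi-array averaging (RMA). Background was set for each array at the 95th percentile of 1027 genes of olfactory receptors, which lay between 5.56 and 5.78. Differences are log2 differences from limma fitted to 13571 genes on all 10 arrays with the 5 states and the genotype as terms, and adjusted p-values are Benjamini-Hochberg values over those genes with a threshold of 0.05. *Slpi* checked the genotype labels: its signal was 11.42 in B6 and 6.55 in *Slpi*-/- BMBs, and 8.08 and 6.41 in BMEos. In mast cells it was 6.53 and 6.47, so the mast cell pair had no such check. The X-linked *Xist* read 9.72 and 9.66 on the LPS arrays and at most 4.90 on the other 8, while the Y-linked *Eif2s3y* read 3.22 and 3.54 on the LPS arrays and at least 7.62 elsewhere. LPS and this sex-linked difference cannot be told apart. Marker genes were read by cell type. All 6 measured basophil markers were above background in BMBs, all 6 measured eosinophil markers in BMEos, and 4 of 8 mast cell markers, *Cma1*, *Kit*, *Cpa3* and *Tpsb2*, were at 11.99 or higher in mast cells. Of the basophil markers, 4 were also above background in mast cells and 3 in BMEos. Of the eosinophil markers, 2 were above it in mast cells and 2 in BMBs. *Itga2* and *Kit*, which encode the DX5 antigen and c-kit, were used to isolate the BMBs.

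Unstimulated BMEos had far less *Lat*, *Lat2* and *Plcg1* than either IgE-responsive cell type, less *Fyn*, most clearly against BMBs, and more *Syk* and *Plcg2*. BMBs had more *Fyn* than mast cells and less *Inpp5d*, *Plcg1* and *Lcp2*. IgE and antigen raised *Lat* and *Lcp2* and lowered *Plcg1* in BMBs, and *Lat2*, *Plcg1* and *Btk* were lower in BMEos with LPS. None of the 9 was called between genotypes.

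In BMBs against mast cells, 3 members were higher (*Fyn*, *Syk*, *Plcg2*) and 3 lower (*Inpp5d*, *Plcg1*, *Lcp2*), beside 18.5% of all genes called higher and 17.9% called lower. In BMEos against mast cells, 2 were higher (*Plcg2*, *Syk*) and 6 lower (*Lat*, *Plcg1*, *Lat2*, *Fyn*, *Inpp5d*, *Lcp2*), beside 24.2% and 26.6% of all genes. In BMEos against BMBs, 4 were higher (*Plcg2*, *Syk*, *Btk*, *Lcp2*) and 4 lower (*Lat*, *Fyn*, *Lat2*, *Plcg1*), beside 18.9% and 21.0%. The median size of the members' differences was 0.55 in BMBs against mast cells, 1.81 in BMEos against mast cells and 1.47 in BMEos against BMBs. Over all genes tested these medians were 0.23, 0.32 and 0.24. Leaving out both LPS arrays gave the same counts of 6, 8 and 8 members called. The comparisons share arrays, and they are set side by side only.

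**Figure D1:**
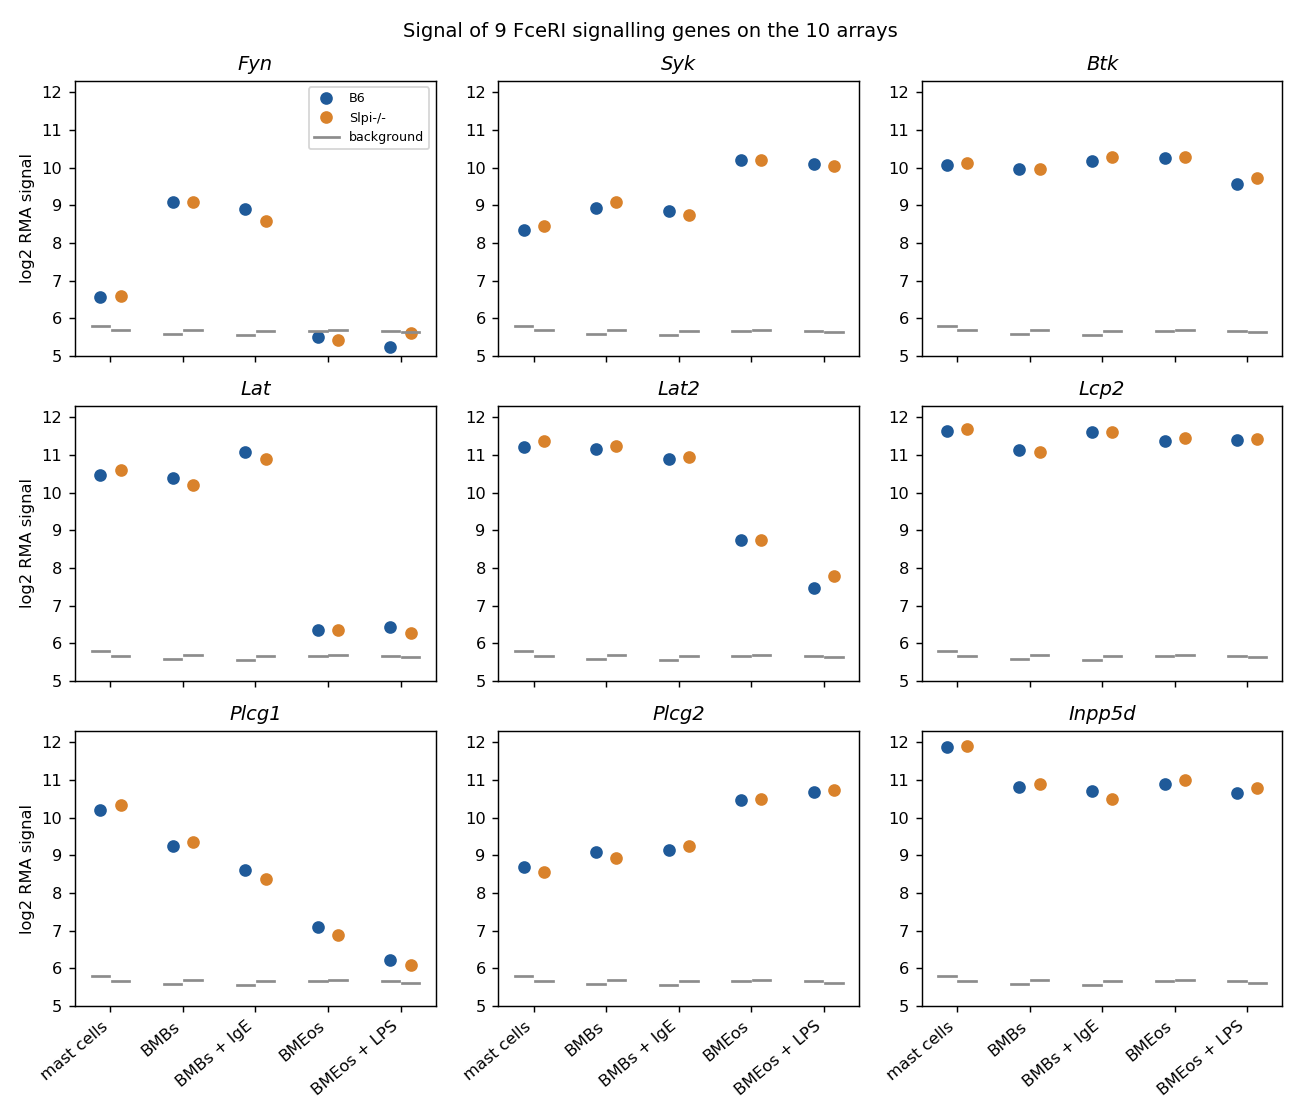
Log2 RMA signal (y axis) of the 9 measured members in the 5 cell states (x axis), with 1 point per array, blue for B6 and orange for *Slpi*-/-. Grey bars mark the background of each array. *Lat*, *Lat2*, *Plcg1* and *Fyn* drop in BMEos while *Syk* and *Plcg2* are highest there, and the points of a pair lie at most 0.39 apart.

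*Fyn*, the Src family kinase that works through Gab2, was the kinase with the widest range. Its signal was 9.10 in B6 and 9.08 in *Slpi*-/- BMBs, 8.89 and 8.59 after IgE and antigen, 6.55 and 6.58 in mast cells, 5.49 and 5.41 in BMEos, and 5.23 and 5.62 after LPS. All BMB arrays lay above both mast cell arrays, which were above background but under a stricter background at the 99th percentile of the olfactory receptors (6.77 and 6.70), and the 4 BMEos arrays were not above background. *Fyn* was 5.76-fold higher in BMBs than in mast cells (log2 difference 2.53, SE 0.15, adjusted p = 2.49e-06 from limma). Against the background of the BMEos arrays, *Fyn* was at least 10.7-fold higher in BMBs and at least 1.87-fold higher in mast cells. The test was of the signals without this bound, with BMEos at -3.64 from BMBs (adjusted p = 3.22e-07 from limma) and -1.12 from mast cells (adjusted p = 0.00022 from limma). With IgE and antigen the difference was -0.35 in BMBs and was not called (adjusted p = 0.121 from limma), running from -0.54 to -0.16 with 1 array left out.

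*Syk*, the kinase that docks on the phosphorylated receptor chains, ran the other way. It read 8.34 and 8.45 in mast cells, 8.93 and 9.08 in BMBs, 8.85 and 8.74 after IgE and antigen, 10.21 and 10.20 in BMEos, and 10.10 and 10.03 after LPS (B6 first). No arrays of neighbouring states overlapped, and the order from low to high was mast cells, BMBs with IgE and antigen, BMBs, BMEos with LPS, BMEos. BMEos exceeded mast cells by 1.81 (SE 0.10, adjusted p = 8.34e-07 from limma) and BMBs by 1.20 (adjusted p = 2.18e-05 from limma), and BMBs exceeded mast cells by 0.61 (adjusted p = 0.00124 from limma). Neither stimulus gave a call, with differences of -0.21 for IgE and antigen and -0.14 for LPS. *Syk* also signals in neutrophils and macrophages, so markers of those cells are given here. Of 7 neutrophil markers, 6 were above background in BMEos and 0 in mast cells, with a summed log2 level of 10.9 to 11.4 against 8.10 to 8.11. *Ngp* was at 11.18 and 10.51 in BMEos, and *Mpo* and *Elane* were at 6.24 and 6.43 and at 5.50 and 5.73. The rest of the list was also low in BMEos: *Mmp8* at 6.61 and 6.49, *Lcn2* at 6.42 and 6.90, *Ltf* at 6.26 and 6.07, and *Camp* at 5.67 and 5.76. Of 4 macrophage markers, 2 were above background in BMEos and 0 in mast cells (summed 9.69 to 9.85 against 7.32 to 7.33), led by *Csf1r* at 9.43 and 9.62, with *C1qa* and *Mrc1* not above background. The part of such cells in the BMEos values was not tested, and in bulk samples fewer cells of a type and less RNA per cell cannot be told apart.

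*Btk*, the Tec family kinase that helps phospholipase Cγ, varied least among the kinases. Its signal was 10.08 and 10.11 in mast cells, 9.95 and 9.96 in BMBs, 10.18 and 10.28 with IgE and antigen, 10.25 and 10.28 in BMEos, and 9.56 and 9.72 with LPS. The LPS arrays were the lowest of the 10. LPS went with a difference of -0.63 (SE 0.09, adjusted p = 0.000939 from limma), and *Btk* lies on the X chromosome. BMEos exceeded BMBs by 0.31 (adjusted p = 0.02 from limma), a call lost without the *Slpi*-/- BMB array (0.10) or either unstimulated BMEos array (0.119 and 0.0788, all adjusted p from limma). The IgE difference of 0.27 passed narrowly (adjusted p = 0.0491 from limma) and was lost in 16 of 20 alternatives, among them each array left out in turn (adjusted p from 0.0181 to 0.445 over the alternatives, limma and the methods' test).

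*Lat*, the membrane adaptor on which phospholipase Cγ assembles, showed the widest gap between cell types. It read 10.47 and 10.61 in mast cells, 10.38 and 10.21 in BMBs, 11.09 and 10.90 after IgE and antigen, 6.36 and 6.36 in BMEos, and 6.43 and 6.26 with LPS. The BMEos signals lay above background but under the stricter background, which was 6.38 to 6.57 on the 4 BMEos arrays. *Lat* was 18.1-fold lower in BMEos than in mast cells (-4.18, SE 0.11, adjusted p = 1.42e-08 from limma) and 15.3-fold lower than in BMBs (-3.94, adjusted p = 4.54e-08 from limma). BMBs and mast cells were separated by -0.24, which was not called (adjusted p = 0.114 from limma) but passed after quantile normalization (adjusted p = 0.0276 from limma), and it ran from -0.38 to -0.11 with 1 array left out.

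IgE and antigen raised *Lat* by 0.70 in BMBs (SE 0.11, adjusted p = 0.00217 from limma), by 0.71 in the B6 and 0.69 in the *Slpi*-/- pair. Its rise was the largest of the members, and both stimulated arrays lay above the other 8.

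*Lat2*, the LAT-like adaptor NTAL, followed *Lat* across cell types but not across stimuli. Its signal was 11.21 and 11.36 in mast cells, 11.17 and 11.23 in BMBs, 10.89 and 10.96 with IgE and antigen, 8.74 and 8.75 in BMEos, and 7.47 and 7.78 with LPS. Mast cells and BMBs overlapped, and both lay far above BMEos. The differences from mast cells and from BMBs were -2.54 (SE 0.10, adjusted p = 1.42e-07 from limma) and -2.46 (adjusted p = 3.42e-07 from limma). *Lat2* was 2.17-fold lower with LPS (-1.12, adjusted p = 8.99e-05 from limma), by -1.27 in the B6 and -0.97 in the *Slpi*-/- pair. With IgE and antigen it was -0.28, not called (adjusted p = 0.0769 from limma) but past the threshold after quantile normalization or with a variance trend (adjusted p = 0.0255 and 0.0368 from limma).

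*Lcp2*, which encodes the cytosolic adaptor SLP-76, stayed between 11.09 and 11.69 on all 10 arrays. It read 11.63 and 11.69 in mast cells, 11.14 and 11.09 in BMBs, 11.63 and 11.61 with IgE and antigen, 11.36 and 11.46 in BMEos, and 11.41 and 11.42 with LPS. Unstimulated BMBs held the lowest arrays. *Lcp2* was lower in BMBs than in mast cells by a difference of -0.55 (SE 0.09, adjusted p = 0.0011 from limma), and IgE and antigen raised it by 0.50 (adjusted p = 0.00372 from limma). The BMEos differences were small, -0.25 from mast cells (adjusted p = 0.036 from limma) and 0.29 from BMBs (adjusted p = 0.0242 from limma). The call against mast cells was lost in 10 of 20 alternatives, among them the absence of any 1 mast cell, unstimulated BMEos or IgE array, and the call against BMBs in 6 of 20, among them the absence of the *Slpi*-/- BMB array or either unstimulated BMEos array.

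*Plcg1* and *Plcg2* encode the γ1 and γ2 forms of phospholipase Cγ, and their signals moved in opposite directions across the 3 cell types. Their promoter windows are shown because of this contrast. Each holds the 250 bases before the gene start, 5′ to 3′ on the plus strand, from RefSeq on GRCm38.p6, with matches to 3 motifs in capitals: the ETS core GGAA, the GATA core GATAA and the C/EBP motif TTGCNNAA, searched on both strands, none overlapping another here. The *Plcg1* window is chr2:160731060-160731309 and the *Plcg2* window chr8:117498025-117498274.
Plcg1: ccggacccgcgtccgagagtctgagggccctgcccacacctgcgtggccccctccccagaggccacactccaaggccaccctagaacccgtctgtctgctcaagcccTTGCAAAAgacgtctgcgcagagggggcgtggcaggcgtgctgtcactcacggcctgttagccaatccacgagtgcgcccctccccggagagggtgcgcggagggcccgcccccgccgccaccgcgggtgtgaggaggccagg
Plcg2: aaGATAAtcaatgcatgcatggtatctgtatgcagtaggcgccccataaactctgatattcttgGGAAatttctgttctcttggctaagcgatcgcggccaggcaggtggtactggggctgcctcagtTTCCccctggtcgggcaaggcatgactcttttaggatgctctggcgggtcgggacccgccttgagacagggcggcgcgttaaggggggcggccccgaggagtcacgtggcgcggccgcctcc
The *Plcg1* window, with 71.2% G and C, held 1 TTGCNNAA and no GGAA or GATAA match. The *Plcg2* window, with 59.6% G and C, held 2 GGAA matches, 1 of them as TTCC on the plus strand, 1 GATAA match and no TTGCNNAA. Among 32851 promoter windows of the same length, 93.45% held GGAA, 22.58% GATAA and 9.564% TTGCNNAA. These matches describe the letters of the windows only. Windows were found for 8 of the 10 members.

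*Plcg1* read 10.21 and 10.33 in mast cells, 9.24 and 9.37 in BMBs, 8.61 and 8.36 after IgE and antigen, 7.11 and 6.88 in BMEos, and 6.23 and 6.08 after LPS. The 5 states lay apart in that order. The LPS signals lay above background but under the stricter background, which was 6.51 and 6.57 on those arrays. *Plcg1* was 9.66-fold lower in BMEos than in mast cells (-3.27, SE 0.12, adjusted p = 1.04e-07 from limma), with BMBs between, -0.96 from mast cells (adjusted p = 0.000294 from limma) and 2.31 above BMEos (-2.31 as BMEos minus BMBs, adjusted p = 1.59e-06 from limma). It was called lower under both stimuli. IgE and antigen lowered it by a difference of -0.82 (adjusted p = 0.00192 from limma), with -0.63 in the B6 and -1.004 in the *Slpi*-/- pair, and with LPS the difference was -0.84 (adjusted p = 0.00119 from limma), with -0.88 and -0.80 in the pairs.

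*Plcg2* read 8.69 and 8.55 in mast cells, 9.09 and 8.93 in BMBs, 9.15 and 9.25 with IgE and antigen, 10.48 and 10.49 in BMEos, and 10.68 and 10.72 with LPS. This order of states was the reverse of that of *Plcg1*. BMEos were 3.64-fold above mast cells (1.87, SE 0.10, adjusted p = 7.28e-07 from limma) and 2.77-fold above BMBs (1.47, adjusted p = 6.65e-06 from limma). BMBs were above mast cells by 0.39 (adjusted p = 0.013 from limma), a call lost without the B6 BMB or the *Slpi*-/- mast cell array (adjusted p = 0.0947 and 0.106 from limma). Neither the IgE difference of 0.19 nor the LPS difference of 0.22 was called.

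*Inpp5d*, which encodes the inhibitory phosphatase SHIP1, set mast cells apart from both granulocytes. It read 11.87 and 11.90 in mast cells, 10.80 and 10.88 in BMBs, 10.71 and 10.51 with IgE and antigen, 10.89 and 11.004 in BMEos, and 10.67 and 10.80 with LPS. The mast cell arrays were the highest, and the other 8 lay between 10.51 and 11.004. The differences from mast cells were -1.04 in BMBs (SE 0.10, adjusted p = 7.13e-05 from limma) and -0.94 in BMEos (adjusted p = 7.79e-05 from limma), and BMEos and BMBs were 0.10 apart (95% CI -0.13 to 0.34, not called). Neither stimulus gave a call.

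**Figure D2:**
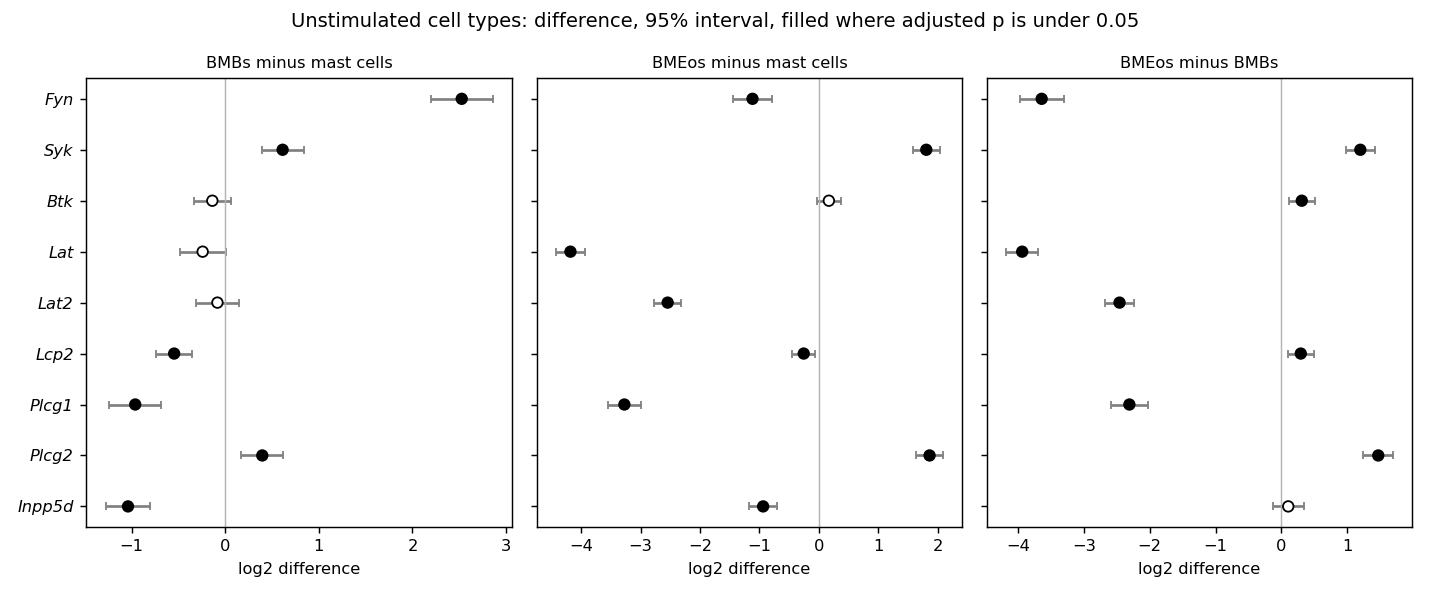
Log2 differences (x axis) between unstimulated BMBs, BMEos and mast cells for the 9 members (y axis), with 95% confidence intervals from limma and filled points where the adjusted p is under 0.05. The *Lat* points lie at -4.18 and -3.94 in the comparisons with BMEos and near 0 in BMBs against mast cells, where *Fyn* stands out at 2.53.

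BMBs and mast cells were both grown with IL-3, and their markers overlapped in part. In BMBs 4 of 8 mast cell markers were above background, with a summed log2 level of 13.27 to 13.31 against 14.62 to 14.73 in mast cells. *Cpa3* was at 12.94 in both BMB arrays and *Tpsb2* at 11.02 and 10.81. *Kit* was at 6.89 and 6.79, against 12.78 and 12.80 in mast cells, and *Cma1*, at 5.61 and 5.79, was near background. *Mcpt4* was under background in BMBs, at 3.96 and 4.18, but was also low in mast cells, at 4.71 and 5.97. All 4 megakaryocyte markers were above background in BMBs (summed 12.33 to 12.50) and 2 of 4 in mast cells (11.55 to 11.62). *Itga2b* made up most of the mast cell sum, at 11.47 and 11.55, against 10.98 and 10.87 in BMBs. *Pf4* was at 9.88 and 10.16 in BMBs, against 4.82 and 5.21 in mast cells. *Ppbp* was at 11.27 and 10.81, against 4.75 and 5.16, and *Gp9* at 8.42 and 8.44, against 6.60 and 6.48. After IgE and antigen the megakaryocyte sum in BMBs was 11.40 in B6 and 12.72 in *Slpi*-/- cells. In BMBs 3 of 7 neutrophil markers were above background, against 0 in mast cells, with a sum of 8.77 to 10.23 against 8.10 to 8.11, and *Mpo* was at 8.84 on the B6 and 5.995 on the *Slpi*-/- array. Of 4 macrophage markers, 3 were above background in BMBs (summed 8.40 to 8.73). After IgE and antigen, 2 neutrophil markers (8.24 to 8.70) and 3 macrophage markers (7.76 to 8.23) were. The part of other cell types in the members' differences was not tested.

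The stimulus comparisons asked which of these genes respond in the cells that carry the receptor and in cells stimulated through TLR4. With IgE and antigen, 3 members rose (*Lat*, *Lcp2*, *Btk*) and 1 fell (*Plcg1*), beside 13.2% of all genes called higher and 11.8% called lower. With LPS, 0 were higher and 3 were lower (*Lat2*, *Plcg1*, *Btk*), beside 13.7% and 17.9%. The LPS count included 3 members at an unadjusted p under 0.05, the same 3. The median size of the members' differences was 0.28 with IgE and antigen and 0.21 with LPS, against 0.18 and 0.22 over all genes tested. With LPS, 5 of 7 neutrophil markers were above background, against 6 without, and their summed log2 level was 11.15 to 11.58, against 10.91 to 11.42. Among them *Lcn2* was at 9.37 and 9.03, against 6.42 and 6.90 without LPS, and *Mmp8* at 5.79 and 5.36, against 6.61 and 6.49. Of 4 macrophage markers, 3 were above background with LPS, against 2, with a sum of 10.44 to 10.59, against 9.69 to 9.85. The part of such cells in the LPS values was not tested.

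**Figure D3:**
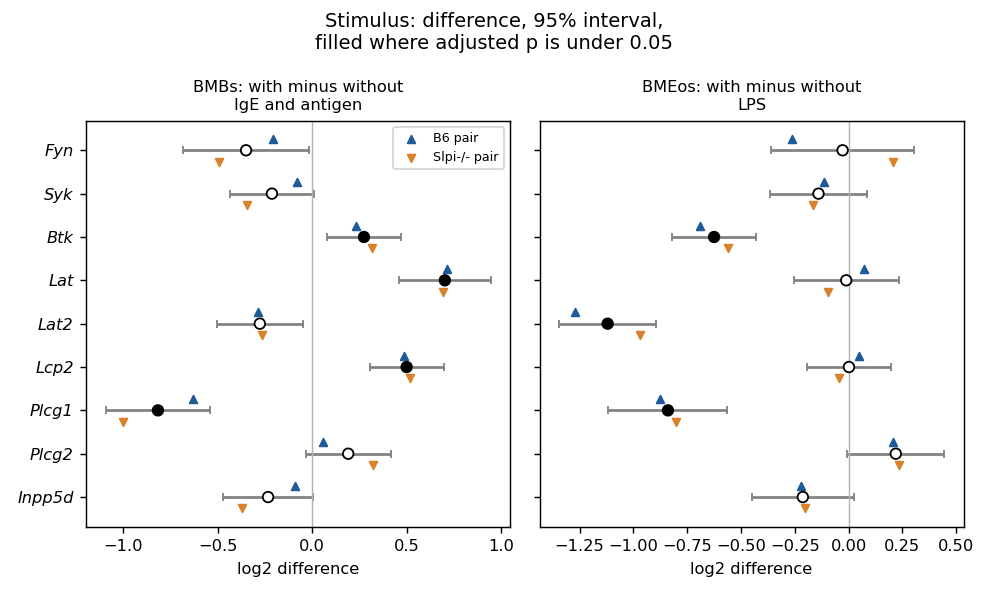
Log2 differences (x axis) with minus without stimulus for the 9 members (y axis), in BMBs given IgE and antigen and in BMEos given LPS. Circles with 95% confidence intervals are from limma, filled where the adjusted p is under 0.05, and triangles give the single B6 and *Slpi*-/- pairs. *Plcg1* is filled on the left of 0 in both panels, *Lat* and *Lcp2* on the right with IgE and antigen, and *Lat2* lies farthest left with LPS.

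Over the 5 states, 0 of 9 members were called, with 0 at an unadjusted p under 0.05, beside 0% of the 13571 genes (722 at an unadjusted p under 0.05, limma). *Slpi* itself, at -2.72 over the states, was not called (adjusted p = 0.851 from limma), with -4.87 in unstimulated BMBs, -1.67 in unstimulated BMEos and -0.06 for the mast cell pair. The largest member difference was that of *Lat2*, 0.12 (95% CI -0.02 to 0.26), higher in *Slpi*-/- cells in 5 of 5 states. *Btk* was also higher in 5 of 5 states, by 0.06 (95% CI -0.06 to 0.19). The 95% intervals of all 9 lay between -0.25 and 0.26.

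Within single states the members' genotype differences ran from -0.30 (*Fyn* in BMBs with IgE and antigen) to 0.39 (*Fyn* in BMEos with LPS, where it was not above background), with a median size of 0.0987 against 0.110 over all genes. The test of whether the genotype difference differed between BMEos and BMBs called 0 of 9 members, with 0 at an unadjusted p under 0.05, beside 0.00737% of all genes, which was 1 gene, *Slpi* (3.08, adjusted p = 0.00989 from limma). The widest of these differences was that of *Fyn*, 0.31 (95% CI -0.17 to 0.79). *Plcg1* lies on chromosome 2, as does *Slpi*, with 43 measured genes between them, and its genotype difference was -0.08 (95% CI -0.25 to 0.10).

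**Figure D4:**
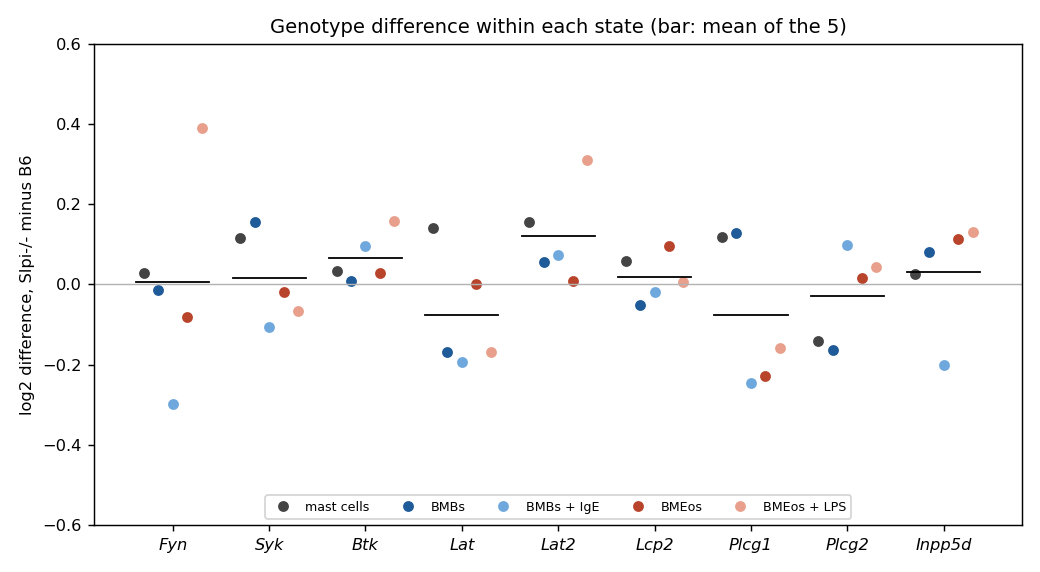
Log2 difference, *Slpi*-/- minus B6 (y axis), of the 9 members (x axis) within each of the 5 states, with 1 point per pair of arrays and a bar at the mean. The points scatter on both sides of 0 between -0.30 and 0.39, except for *Lat2* and *Btk*, whose 5 points lie above 0.

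Around the members, 56 other genes of the pathway were listed, of which 51 had a probe set and 49 were tested. The others were not analysed here. The receptor's own chains divided the cells: *Fcer1a* was 12.16 and 12.24 in mast cells and 11.43 and 11.47 in BMBs, but 3.48 and 4.45 in BMEos, where it was not above background. *Fcer1a* was at least 92.9-fold higher in mast cells than in BMEos and at least 55.3-fold higher in BMBs, and *Ms4a2* at least 66.9-fold and 52.3-fold. *Fcer1g*, whose γ chain also serves Fcγ receptors, lay between 12.09 and 12.61 on all 10 arrays and was not called between cell types. In BMEos with LPS *Fcer1g* was called higher, by 0.41 (adjusted p = 0.00851 from limma).

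In BMEos against mast cells, 18 of the 49 other genes were higher and 19 lower, beside 24.2% and 26.6% of all genes. In BMEos against BMBs, 17 were higher and 14 lower, beside 18.9% and 21.0% of all genes. *Fgr*, a Src family kinase of myeloid cells, was higher in BMEos by 3.85 against mast cells, where it was above background on 1 of 2 arrays, and by 3.34 against BMBs. *Rasgrp4*, a Ras activator, was higher by 2.56 against BMBs. *Skap1*, an adaptor of integrin signalling, was at least 6.85-fold higher in BMBs than in BMEos. In BMBs against mast cells, 19 were higher and 13 lower, beside 18.5% and 17.9% of all genes. The adaptors *Clnk*, a relative of SLP-76, and *Grap2*, which binds SLP-76, were the mast cell genes, with differences of -4.49 and -3.94. In BMBs *Clnk* read 5.50 (B6, under background) and 5.91, and *Grap2* 5.76 and 5.99, all under the stricter background. *Clnk* differed by -4.41 in BMEos from mast cells and was under the stricter background there too. *Grap2* was at least 17.8-fold higher in mast cells than in BMEos. The kinase *Tec* (3.34), the IP3 receptor *Itpr3* (2.87) and the PI3-kinase adaptor *Pik3ap1* (1.97) were higher in BMBs.

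**Figure D5:**
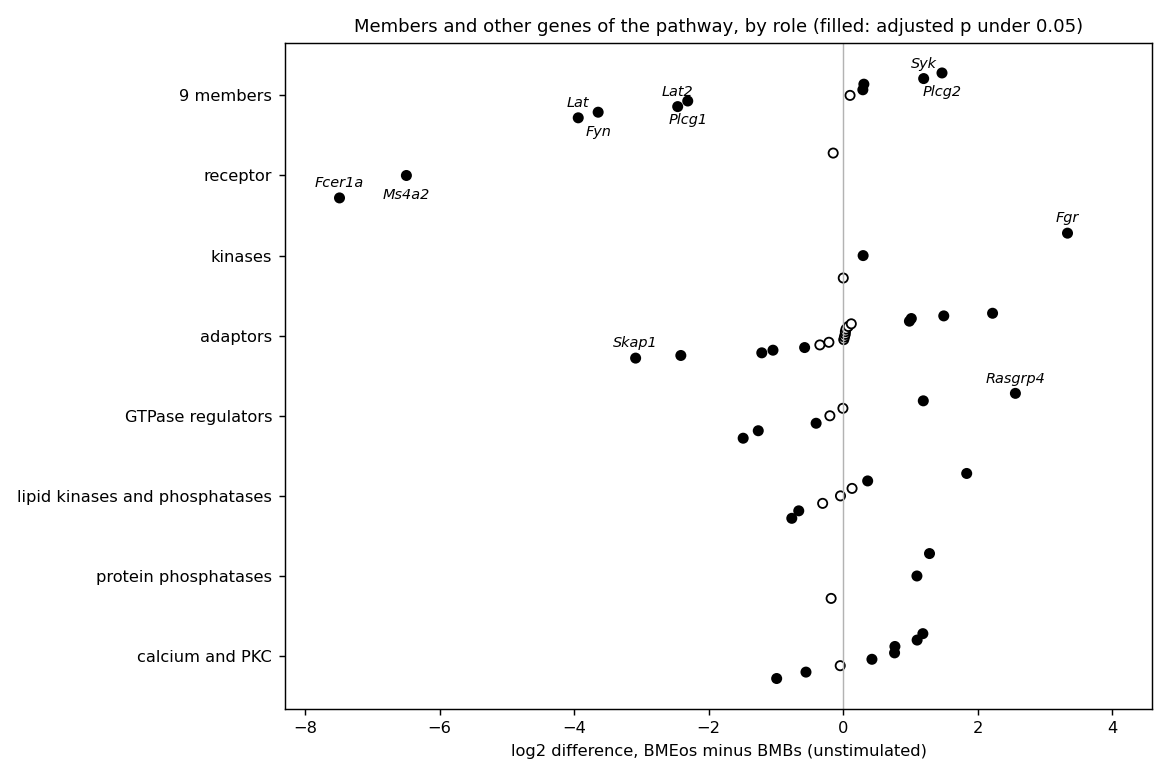
Log2 difference between unstimulated BMEos and BMBs (x axis) for the 9 members and the 49 other tested genes, by role (y axis), with 1 point per gene, filled where the adjusted p from limma is under 0.05. The receptor chains *Fcer1a* (-7.49) and *Ms4a2* (-6.49), which were not above background in BMEos, lie farthest left and *Fgr* (3.34) farthest right.

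With IgE and antigen, 7 of the 49 were higher and 11 lower, beside 13.2% and 11.8% of all genes. *Pik3ap1* rose by 1.02, *Dok2*, a docking protein, by 0.77 and *Skap1* by 0.67, and the membrane adaptor *Pag1* (-0.85) and *Skap2* (-0.67) fell. With LPS, 15 were higher and 11 lower, beside 13.7% and 17.9% of all genes. The lower ones included *Ms4a2*, which was not above background on any BMEos array. *Pik3ap1* was higher by 1.98, the adaptor *Sh3bp2* by 1.33 and *Fgr* by 1.14, while *Gab2*, the adaptor of the Fyn branch (-1.53), and *Itpr3* (-1.19) were lower. Genotype called 0 of the 49, with 3 at an unadjusted p under 0.05, beside 0 called and 722 at an unadjusted p under 0.05 of all 13571 genes (limma).

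Across the 10 arrays, the genes whose signals ran most like each member were not members. The closest to *Lat* was *Csf2rb2*, an IL-3 receptor chain (Pearson r = 0.996), and those closest to *Lat2* were *Tnfaip8* (0.996) and the transcription factor *Gata2* (0.992). *Fyn* ran most like *Dnase2b* (0.993), *Syk* like *Ctsh* (0.994), *Plcg1* like *Cuedc1* (0.992), *Plcg2* like *Plk2* (0.993) and *Inpp5d* like *Cryl1* (0.984). For *Btk* and *Lcp2*, which varied less, the closest were *Tbcd* (0.956) and *Srsf6* (0.957). Among the members themselves, *Plcg1* and *Plcg2* ran opposite (r = -0.98), as did *Syk* and *Lat* (-0.96), while *Lat* and *Lat2* (0.95) and *Syk* and *Plcg2* (0.97) ran together. These correlations describe 10 arrays that share 3 cell types.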

How the data were processed

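The authors hybridized RNA of 10 conditions, 1 array each, and deposited log2 signals from the RMA algorithm (affy package), as the submitters' processing notes and methods state. The log2 values were used as deposited, with no further normalization. RMA scales the probe signals of all arrays to a common distribution, so changes in total RNA are not seen. Of 34760 probe sets, 21640 carry 1 gene symbol in the platform annotation, 1321 several and 11799 none, and the first gave 19937 genes (the probe set with the highest mean where a gene had several). 21553 of the 21640 were matched to a RefSeq gene table of GRCm38.p6, used for names and chromosomes.

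Tests used R 4.3.3 with lmFit and eBayes of limma 3.58.1, on all 10 arrays with the 5 states and genotype as additive terms, 4 residual and 4.51 prior degrees of freedom. The genotype difference between BMEos and BMBs came from a fit of cell type by genotype means with IgE and LPS terms. Genes above background on at least 1 array (13571) were tested and adjusted together by Benjamini-Hochberg. The additive fit takes the 2 genotypes as each other's replicates within a state. A level bounded by background is the higher of the signal and the 95th percentile of olfactory receptor genes, averaged over a state's arrays. Precision is limited by the number of arrays. The test was tried on simulated data first. Summaries were computed in Python 3.11.15 (pandas 2.3.3, numpy 2.4.6) and drawn with matplotlib 3.10.9. Members were all named, and of the pathway list up to 5 genes per comparison, those called with the largest differences, with the receptor chains counted. The receptor chains were also named outside this rule. The members and lists were chosen with earlier results of these data known. Alternatives were median centring, quantile normalization, other filters and backgrounds, a variance trend, the methods' paired t-test, subsets of arrays, no genotype term, no X and Y genes, and each array left out. Leaving out both LPS arrays was added after seeing the data.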

Additional observations from a re-analysis of the deposited data

Results flagged for a closer look

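The LPS difference ran in opposite directions in the 2 genotypes for 3 members, none of them called for LPS. The *Slpi*-/- response minus the B6 response was 0.472 for *Fyn* (-0.26 in B6 and 0.21 in *Slpi*-/- BMEos, not above background on any of these arrays), -0.170 for *Lat* (0.07 and -0.10) and -0.091 for *Lcp2* (0.05 and -0.04). With 1 array per condition this difference between genotypes was not tested.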

How the results depend on the processing

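Across leave-one-out fits, in which a lone array is assumed to vary like the others, 498 of 540 member differences kept direction and side of the threshold, 24 were no longer called and 18, none of them called, changed sign. In a comparison of 2 states, leaving out an array of another state left the difference unchanged. The direction was then fixed in advance, and only the side of the threshold could change. For genotype, leaving out either array of a pair gave the same difference. The methods' paired t-test had 2 pairs per comparison, and 5 for genotype. It called 0 members in each comparison, and of all genes 1 for BMEos against mast cells and 0 in the others. For genotype over all genes, 1 was called after median centring, 2 after quantile normalization, 1 above the 99th percentile, 2 with a variance trend, 1 in the 4 BMB arrays alone, and 0 to 2 with an array left out. Leaving out an array gave 1792 to 3281 genes for IgE, lowest without the *Slpi*-/- BMB array with IgE (1792) or without IgE (1849), and 2274 to 4380 for LPS, lowest without the *Slpi*-/- (2274) or B6 (2525) unstimulated BMEos array or the B6 LPS array (2703). Differences that changed sign, none of them called, were *Lcp2* with LPS after centring (-0.0749), and for genotype *Fyn* (-0.156), *Lcp2* (-0.0342) and *Inpp5d* (-0.0605) in the 4 BMB arrays, *Syk* (-0.0416) and *Plcg2* (0.0298) in the 4 BMEos arrays, and *Fyn* (-0.0911) without both LPS arrays. With an array left out, the LPS difference ran from -0.269 to 0.213 for *Fyn*, -0.0674 to 0.0456 for *Lat* and -0.0469 to 0.0507 for *Lcp2*, and the genotype difference from -0.0911 to 0.0811 for *Fyn*, -0.0187 to 0.0468 for *Syk*, -0.0007 to 0.0361 for *Lcp2* and -0.0614 to 0.0045 for *Plcg2*. The cause of these changes was not tested.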
